A study of Mus musculus with 45 samples.

Results

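The 35 genes described here encode the enzymes of glycolysis, the pyruvate dehydrogenase complex, pyruvate carboxylase and the citrate cycle, with 1 glucose transporter. They were taken by name from a table of 47729 genes, and 34 of the 35 had more than 5 reads in 6 or more of the 45 libraries, as had 14020 genes in all. Of the 35, 16 are genes of glycolysis and 19 are genes of pyruvate entry and the citrate cycle. RNA came from small intestinal tuft cells, which were sorted by flow cytometry from single male C57BL/6J mice housed at thermoneutrality and 5 weeks old at arrival. Mice were fed a reference diet (RFD) with 10% fat or a high fat diet (HFD) with 60% fat. The STF set, taken as 9 weeks of feeding, held 11 libraries on RFD and 11 on HFD. The LTF set, taken as 22 weeks, held 11 on RFD and 12 on HFD. Both sets are labelled 9 weeks, and the 22 weeks come from the study's design, so duration and set cannot be told apart. The labels describe the sorted cells as positive for EpCAM, CD45 and Siglec-F.

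Glycolysis converts glucose to pyruvate in the cytosol, and lactate dehydrogenase turns pyruvate to lactate. Pyruvate that enters the mitochondrion is converted to acetyl-CoA by the pyruvate dehydrogenase complex, and the citrate cycle oxidises acetyl-CoA that comes from pyruvate or from fatty acids. Tuft cells are rare chemosensory epithelial cells, and crypt cells that divide, Paneth cells and enterocytes are their neighbours in the same epithelium.

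The libraries held between 189340 and 4690213 reads on genes. The median rank correlation of a library with the others of its set was 0.50 for STF RFD mouse 40, which had the lowest total, and 0.53 for LTF RFD mouse 3, and it was 0.75 to 0.87 for the other libraries. Of the 10 tuft cell markers, 8 had reads in every library, Pou2f3 was at 0 in 1 library and Il25 was at 0 in 5. The mean level of the 10 markers differed widely between mice on HFD in STF, from 3.80 to 9.83 log2 CPM (reads scaled to a common library size with edgeR's TMM factors), with a median of 7.82 against 9.34 on RFD. The 6 stem and transit amplifying markers had a median mean level of 5.22 log2 CPM on RFD and 6.49 on HFD in STF, and of 4.24 and 5.06 in LTF. Of those 6 markers, all 6 were higher on HFD in STF and 1 passed the test. Paneth cell markers had a median mean level of 7.88 log2 CPM on RFD and 10.99 on HFD in STF. In LTF it was 7.37 and 9.60, with none of the 6 past the threshold in either set. Between STF mice on HFD the Paneth mean ran from 3.42 to 15.58, and the summed level of the 6 genes from 104 to 586273 CPM. The mouse at 15.58, mouse 80, had the tuft marker mean of 3.80. In bulk RNA, fewer cells of a type and less RNA per cell cannot be told apart.

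Promoter sequence is shown for the 3 genes of this group that passed the test of diet and, as examples, for 2 glycolysis genes, Pgk1 and Pgam1. The RefSeq promoter table (GRCm38.p6) held 34 of the 35 genes, and Idh3a was not matched. Capitals mark ACGTG, the core of the hypoxia response element, and GGGCGG, the GC box, each read on either strand, so that CACGT and CCGCCC are marked too. The sequences run 5′ to 3′ towards the transcription start and stop before the GENCODE gene begins. They cover chr7:80115393-80115600 for Idh2 (minus strand), chr6:95718847-95719096 for Suclg2 (minus strand) and chrX:160138431-160138680 for Pdha1 (minus strand), with chrX:106186850-106187099 for Pgk1 and chr19:41911621-41911870 for Pgam1 on the plus strand.
Idh2: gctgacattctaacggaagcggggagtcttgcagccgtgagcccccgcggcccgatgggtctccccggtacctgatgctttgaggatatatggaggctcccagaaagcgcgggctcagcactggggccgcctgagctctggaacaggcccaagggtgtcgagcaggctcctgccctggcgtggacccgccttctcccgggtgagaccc
Suclg2: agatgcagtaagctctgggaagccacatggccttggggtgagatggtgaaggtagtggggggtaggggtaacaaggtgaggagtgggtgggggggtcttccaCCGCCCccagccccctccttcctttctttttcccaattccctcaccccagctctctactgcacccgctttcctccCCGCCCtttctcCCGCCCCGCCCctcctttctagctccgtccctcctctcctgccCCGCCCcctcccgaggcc
Pdha1: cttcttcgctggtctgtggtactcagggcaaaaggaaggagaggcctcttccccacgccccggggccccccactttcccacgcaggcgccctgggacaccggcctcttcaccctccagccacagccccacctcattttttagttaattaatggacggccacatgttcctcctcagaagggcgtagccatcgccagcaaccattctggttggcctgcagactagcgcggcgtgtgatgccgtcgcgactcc
Pgk1: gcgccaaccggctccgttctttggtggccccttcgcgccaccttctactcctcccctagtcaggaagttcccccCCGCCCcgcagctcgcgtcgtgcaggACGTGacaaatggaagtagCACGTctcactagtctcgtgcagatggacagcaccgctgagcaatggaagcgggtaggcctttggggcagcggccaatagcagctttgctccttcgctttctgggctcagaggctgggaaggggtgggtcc
Pgam1: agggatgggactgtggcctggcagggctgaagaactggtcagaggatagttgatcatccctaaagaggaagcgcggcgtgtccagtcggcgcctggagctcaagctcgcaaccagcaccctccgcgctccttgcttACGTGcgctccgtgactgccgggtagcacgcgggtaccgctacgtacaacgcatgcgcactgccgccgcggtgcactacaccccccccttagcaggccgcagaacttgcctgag

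The Suclg2 promoter held 5 matches to GGGCGG, the last part of the Idh2 promoter window held 2 within 42 bases not printed, and Pdha1 held none. Pgk1 held ACGTG at 2 positions and Pgam1 at 1, and none of the 3 genes that passed the test held it. The genes printed are examples and do not stand for their lists, whose shares follow. Over the 250 bases before the start, ACGTG was present for 8 of 16 glycolysis genes (50%), for 5 of 18 pyruvate and citrate cycle genes (27.8%) and for 18.5% of the 27025 genes in the table. GGGCGG was present for 62.5%, 72.2% and 35.4%, respectively. CACGTG, the E-box, which contains ACGTG, was present for 2 genes of each list and for 6.86% of all genes. The direct repeat bound by nuclear receptors (DR1) had no match in either list and was present for 0.0407% of all genes. A gene with several promoters counted once if any of them held the motif, and these are matches of letters in a short window.

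Levels between genes were compared in TPM, a unit that is set per transcript length. Ldha, the muscle type subunit of lactate dehydrogenase, had the highest TPM of the 35 genes in 45 of 45 libraries. Its group medians ran from 1817 TPM on HFD in STF to 2667 TPM on HFD in LTF. Ldhb, the heart type subunit, was listed at 0 in 33 libraries and reached 3.8 TPM at most, so lactate dehydrogenase reads were nearly all from 1 subunit gene. Gapdh, Eno1 and Aldoa followed with medians over all libraries of 904, 732 and 718 TPM, and their ranges overlapped. Mdh2, mitochondrial malate dehydrogenase, was the highest of the citrate cycle with a median of 534.5 TPM, and Mdh1, its cytosolic isozyme, had 284 TPM. Among the listed genes, the first kinases of glycolysis and pyruvate carboxylase were low. Hk1, the first glycolytic kinase, had a median of 14.3 TPM and its isozyme Hk2 1.27 TPM, and Hk1 made up a median of 80.6% to 96.3% of their sum in the 4 groups. Of the phosphofructokinase subunits, Pfkp took a median of 65.5% to 74.7% of the summed TPM, Pfkl had a median of 27.9 TPM, and Pfkm was at 0 in 14 libraries. Pcx, pyruvate carboxylase, had a median of 2.66 TPM. Between the ligases that make ATP or GTP from succinyl-CoA, the ATP-forming Sucla2 held 65.9% to 77.4% of the TPM of Sucla2 and Suclg2 by group median.

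**Figure D1:**
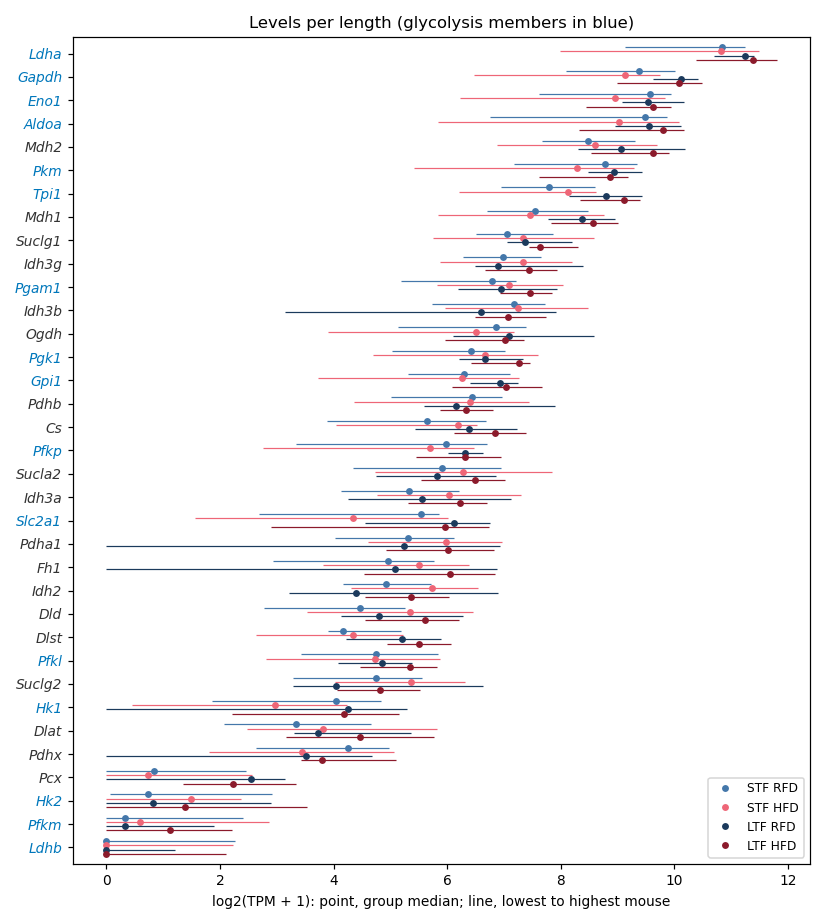
Levels per length of the 35 genes as log2(TPM + 1), ordered by their median over 45 libraries, with a point at each group median and a line from the lowest to the highest mouse. Ldha is at the top, and Hk2, Pfkm and Ldhb lie near 0.

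The first comparison asked whether glycolysis genes differed between HFD and RFD. In STF, none of the 15 tested glycolysis genes passed the threshold of adjusted p under 0.1 (quasi-likelihood test of edgeR, Benjamini-Hochberg over 14020 genes), where 3.32% of all genes did. The 4 with an unadjusted p under 0.05, Hk1, Gapdh, Pkm and Eno1, had lower fitted levels on HFD, and 8.27% of all genes were lower at that p. The median log2 difference (HFD minus RFD) was -0.20 for the glycolysis genes and -0.05 for all genes. In LTF, 0 of 15 passed, where 0.792% of all genes did, and 3 had an unadjusted p under 0.05, 2 of them higher, where 10.3% of all genes did and 5.61% were lower. The LTF median was 0.11, against -0.03 for all genes.

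Of the listed genes of glucose entry and phosphorylation, Slc2a1 and Hk1 had lower medians on HFD. Hkdc1, a further hexokinase gene outside the list, went the other way. Its medians were 53.4 and 79.0 CPM in STF and 126.7 and 149.2 CPM in LTF. For Hkdc1, 10 of 11 and 10 of 12 HFD mice lay above the RFD median. The log2 differences were 0.62 (SE 0.24, adjusted p = 0.167) and 0.48 (SE 0.27, adjusted p = 0.553) in edgeR's test. Hk1 in STF had 7.44 CPM in the lowest, 64.7 CPM in the median and 113 CPM in the highest mouse on RFD, and 3.34, 18.3 and 74.5 CPM on HFD. Among HFD mice 10 of 11 lay under the RFD median, although the ranges overlapped. The log2 difference was -1.30 (SE 0.43, adjusted p = 0.118, edgeR's quasi-likelihood test). In LTF the Hk1 median was 78.3 CPM on RFD and 57.0 CPM on HFD, with 11 of 12 HFD mice under the RFD median and a log2 difference of -0.63 (SE 0.41, adjusted p = 0.63, edgeR). Slc2a1, the basolateral glucose transporter GLUT1, had a median of 119 CPM on RFD and 52.9 CPM on HFD in STF, with 9 of 11 HFD mice under the RFD median. In LTF the Slc2a1 medians were 227 and 168 CPM. Hk2 had a low level in both diets, with medians of 2.06 and 6.45 CPM in STF and 4.80 and 5.51 CPM in LTF, and ranges that overlapped.

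The middle steps of glycolysis, from glucose 6-phosphate to triose phosphates, gave no common direction. Gpi1, the isomerase that makes fructose 6-phosphate, had medians of 177.5 CPM on RFD and 148 CPM on HFD in STF, and 290.1 and 308 CPM in LTF. Pfkp, the platelet type phosphofructokinase subunit, had 184 and 176 CPM in STF and 243 and 277 CPM in LTF. The liver type subunit Pfkl had 101 and 105 CPM in STF, and 117 and 152 CPM in LTF, where 8 of 12 HFD mice exceeded the whole RFD range and 1 was below all of them. Pfkm, the muscle type, stayed at medians of 0.753 and 2.91 CPM in STF and 0.852 and 3.22 CPM in LTF. Aldolase A and triose phosphate isomerase split. Aldoa had medians of 982 and 605 CPM in STF and 1185 and 1128 CPM in LTF, and Tpi1 had 354 and 491 CPM in STF and 699.7 and 797 CPM in LTF. For Tpi1, 11 of 11 mice on HFD in STF and 11 of 12 in LTF were above the RFD median, with log2 differences of 0.27 (SE 0.16, adjusted p = 0.395) and 0.22 (SE 0.13, adjusted p = 0.591) in edgeR's test.

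The late steps held differences in both directions. Gapdh, which oxidises glyceraldehyde 3-phosphate, had 522, 902 and 1311 CPM in the lowest, median and highest STF mouse on RFD and 415, 608 and 1021 CPM on HFD. Under HFD, 10 of 11 mice lay below the RFD median and 3 lay under the whole RFD range. The log2 difference of Gapdh was -0.53 (SE 0.19, adjusted p = 0.144, edgeR), and in LTF, with medians of 1583 and 1264 CPM, it was -0.15 (SE 0.14, adjusted p = 0.773, edgeR). Pkm, the muscle type pyruvate kinase, had 503, 1172 and 1710 CPM on RFD in STF and 513, 705 and 1479 CPM on HFD. The HFD mice lay mostly in the lower part of the RFD range, with 9 of 11 below its median and a log2 difference of -0.53 (SE 0.22, adjusted p = 0.195, edgeR). In LTF Pkm had 869, 1343 and 1803 CPM on RFD and 782, 1049 and 1372 CPM on HFD, with 11 of 12 HFD mice under the RFD median. The LTF difference was -0.36 (SE 0.15, adjusted p = 0.393, edgeR). Eno1, enolase, had medians of 1419 and 939 CPM in STF (log2 difference -0.44, SE 0.21, adjusted p = 0.273, edgeR) and of 1604 and 1349 CPM in LTF.

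The steps between Gapdh and Eno1 lay on the other side. Pgk1, phosphoglycerate kinase, had 115, 199 and 293 CPM in the lowest, median and highest LTF mouse on RFD and 189.9, 255 and 294 CPM on HFD, and 11 of 12 HFD mice lay over the RFD median. Its log2 difference was 0.34 in LTF (SE 0.14, adjusted p = 0.41, edgeR) and 0.38 in STF (SE 0.19, adjusted p = 0.299, edgeR), where the medians were 186 and 219 CPM. Pgam1, phosphoglycerate mutase, had 144, 231 and 433 CPM on RFD in LTF and 195, 328 and 705.5 CPM on HFD. For Pgam1, 10 of 12 HFD mice were over the RFD median in LTF (log2 difference 0.49, SE 0.20, adjusted p = 0.371, edgeR) and 10 of 11 in STF (0.55, SE 0.28, adjusted p = 0.3, edgeR). Ldha, at the end of the pathway, had medians of 2772 and 2289 CPM in STF and 4027 and 4136 CPM in LTF, and its ranges overlapped in both sets. Ldhb was not tested, with 42 reads over all libraries. Several of these genes, Gapdh, Pgk1, Eno1, Tpi1 and Aldoa among them, have near-identical pseudogene copies in the mouse genome, and reads that matched several genes were divided among them during counting, so their levels are uncertain to that extent.

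**Figure D2:**
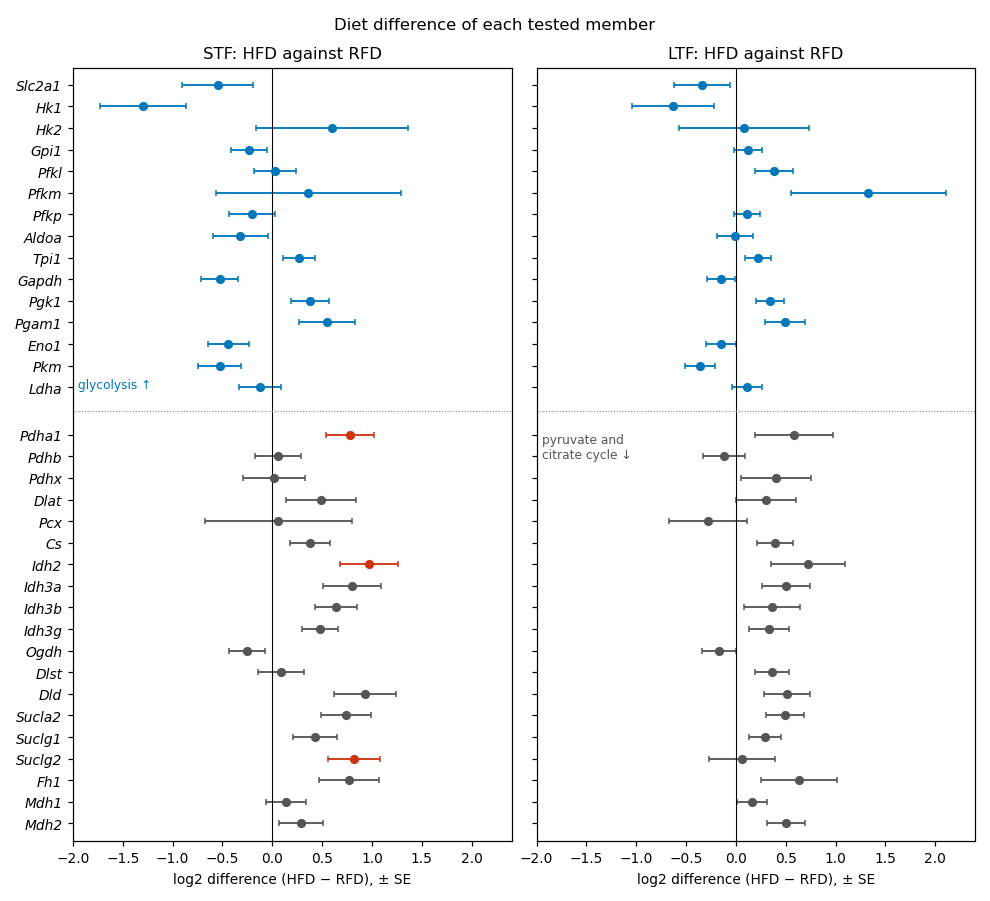
Log2 difference between HFD and RFD with its SE for the 34 tested genes in STF (left) and LTF (right), with glycolysis above the dotted line and pyruvate and citrate cycle genes below it. The 3 genes past adjusted p under 0.1 are in red, and 18 of the 19 genes below the line lie right of 0 in STF (16 with DESeq2's size factors) and 16 of 19 in LTF.

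The second comparison asked the same of pyruvate entry and the citrate cycle, where 18 of 19 genes had higher fitted levels on HFD in STF (16 with DESeq2's size factors and 13 on log2(TPM + 1)). Of those genes 3 rose past the threshold, Idh2, Pdha1 and Suclg2, and none fell, where 2.0% of all genes were called higher and 1.33% lower. An unadjusted p under 0.05 was found for 9 of 19, all higher, where 9.73% of all genes were higher at that p. The median log2 difference was 0.48, against -0.05 for all genes. In LTF 16 of 19 had higher fitted levels, 0 passed the threshold (0.435% of all genes were called higher), and 5 had an unadjusted p under 0.05, all higher, where 4.69% of all genes were. The LTF median was 0.36, against -0.03 for all genes. Higher fitted levels on HFD were found for 6634 of all 14020 genes in STF and for 6717 in LTF.

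Idh2, the mitochondrial isocitrate dehydrogenase that makes NADPH (chromosome 7, 80094846 to 80115392), had 25.4 CPM in the lowest, 50 CPM in the median and 127 CPM in the highest STF mouse on RFD. On HFD it had 29.8, 105 and 236 CPM. The ranges overlapped, while 4 of 11 HFD mice exceeded the whole RFD range and 9 exceeded its median. Its level was 1.96-fold higher on HFD, a log2 difference of 0.97 (SE 0.29, adjusted p = 0.0851, edgeR's quasi-likelihood test). In LTF it had 11.7, 31.2 and 196 CPM on RFD and 36.8, 61.7 and 192 CPM on HFD, with 12 of 12 HFD mice over the RFD median and a log2 difference of 0.72 (SE 0.37, adjusted p = 0.507, edgeR). Pdha1, the E1 alpha subunit of pyruvate dehydrogenase (chromosome X, 160122209 to 160138413), had 52.8, 127 and 239 CPM on RFD in STF and 128, 222.5 and 344 CPM on HFD. All 11 mice on HFD were above the RFD median and 4 exceeded the whole RFD range, a log2 difference of 0.78 (SE 0.24, adjusted p = 0.0992, edgeR). In LTF its medians were 109.9 and 182 CPM, with 1 RFD library at 0, 11 of 12 HFD mice over the RFD median and a log2 difference of 0.58 (SE 0.39, adjusted p = 0.643, edgeR). Suclg2, the GTP-forming subunit of succinate-CoA ligase (chromosome 6, 95473009 to 95718800), had 31.8, 68.6 and 199 CPM on RFD in STF and 85.1, 128 and 215 CPM on HFD. The HFD mice were all above the RFD median, although 1 alone was above the whole RFD range, and the log2 difference was 0.82 (SE 0.26, adjusted p = 0.0995, edgeR). In LTF Suclg2 had medians of 48.3 and 70.5 CPM, and 1 RFD mouse reached 260.5 CPM, above every mouse on HFD. The LTF log2 difference was 0.06 (SE 0.33, adjusted p = 0.972, edgeR) and 0.39 without RFD mouse 3.

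**Figure D3:**
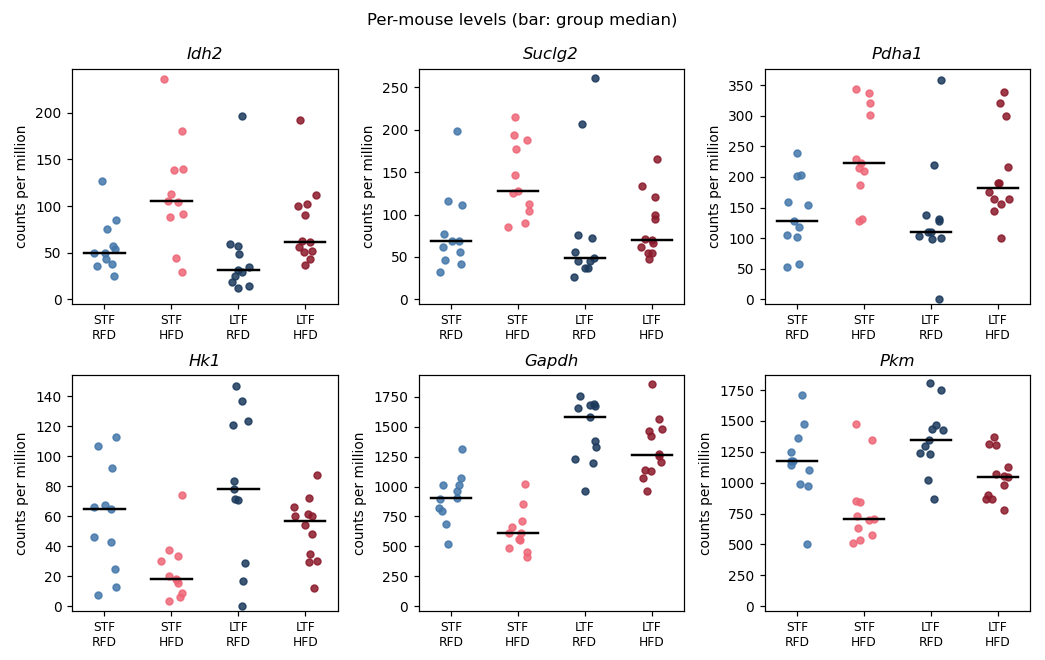
CPM of the 3 genes that passed the test in STF (top) and of the 3 glycolysis genes with the smallest p in STF (bottom), with 1 point for each mouse and a bar at the group median. The HFD medians in STF lie above those on RFD in the top row and below them in the bottom row, and the ranges of the groups overlap in all 6 panels.

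These 3 calls lay close to the threshold. Without STF RFD mouse 40 none of the 19 passed (Idh2 0.90, Pdha1 0.72 and Suclg2 0.72 on the log2 scale, with adjusted p of 0.113, 0.125 and 0.126 in edgeR's test), and Gapdh passed in the lower direction (-0.61, adjusted p = 0.084). With the mean level of the stem and transit amplifying markers as a covariate, a fit chosen after seeing the data, the median of the 19 genes was 0.14 in STF and 0.16 in LTF, 11 of 19 were higher in STF, none passed, and 1 gene of 14020 was called in STF against 466 without it. With the difference between tuft and enterocyte markers as a covariate the median of the 19 was 0.29 in STF, the glycolysis median was 0.02, none passed, and 69 genes were called. The marker levels themselves differed between the diets in STF, so these 2 fits cannot separate diet from cell type. Some single genes moved further on the log2 scale than the list median in STF, and others less. Idh3g, at 0.48 in the main fit, was no lower than 0.29 in any fit. With the tuft minus enterocyte and the stem and transit amplifying covariate, respectively, Idh2 was 0.50 and 0.19, Pdha1 0.47 and 0.36, Suclg2 0.52 and 0.42, Dld 0.42 and 0.18, Fh1 0.35 and 0.09, and Hk1 -0.81 and -0.36 on the log2 scale. With the number series as a term 3 of the 19 were called in STF, but Suclg2 was lost (0.71, adjusted p = 0.106) and Dld came in (0.86, adjusted p = 0.0879), beside Idh2 (0.83, adjusted p = 0.0958) and Pdha1 (0.72, adjusted p = 0.0917) in edgeR's test. The 3 series of mouse numbers may mark repeated experiments. Within them the STF log2 differences were 0.84, 0.98 and 0.55 for Idh2 and 0.88, 0.65 and 0.82 for Pdha1. For Suclg2 they were 0.93, 0.75 and 0.84. The second series holds RFD mouse 40, the lowest RFD mouse there for each gene. It had 38.2, 102 and 31.8 CPM of Idh2, Pdha1 and Suclg2. RFD mice 10 and 20 had 75.7 and 127, 202 and 239, and 116 and 199 CPM, respectively. The HFD mice of that series ran from 91.2 to 236, from 210 to 344 and from 104 to 215 CPM. The mean over the 19 genes differed by 0.62, 0.38 and 0.24 within the 3 STF series. In LTF it differed by 0.65, 0.27 and 0.55. The glycolysis mean differed by -0.33, -0.01 and 0.25 in STF and by 0.38, -0.12 and 0.20 in LTF. The second STF and the first LTF values lean on RFD mice 40 and 3, respectively. For the 19 genes mouse 40 had 6.18 log2 CPM, RFD mice 10 and 20 had 7.12 and 7.43, and HFD mice there 7.01 to 7.53. LTF mouse 3 had 5.52, the other RFD mice of its series 7.04 to 7.91, and the HFD mice 7.14 to 7.95. For glycolysis mice 40 and 3 had 6.51 and 6.73, the lowest on RFD in their sets. Within the series Hk1 differed by -1.59, -0.39 and -1.13 in STF and by 1.43, -0.97 and -0.93 in LTF. Gapdh differed by -0.86, -0.51 and -0.06 in STF and by -0.15, -0.22 and -0.0 in LTF. For Pkm the values were -1.0, -0.56 and 0.07, and -0.42, -0.53 and -0.04. For Eno1 they were -0.84, -0.18 and -0.04, and -0.17, -0.22 and -0.02. Gapdh, Pkm and Eno1 thus lay near 0 in the third series of both sets.

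None of the other pyruvate genes passed the threshold in either set. Pdhb, the E1 beta subunit, had medians of 126 and 135 CPM in STF and 112 and 116 CPM in LTF. Dlat, the E2 subunit, had 32 and 55.3 CPM in STF and 36.8 and 51.2 CPM in LTF. Pdhx, which binds the E3 subunit, had 35.8 and 42.2 CPM in STF and 29.8 and 36.1 CPM in LTF, and 3 of 11 STF HFD mice lay under the whole RFD range. Pyruvate carboxylase, which feeds oxaloacetate, was low, and Pcx had medians of 7.04 and 8.91 CPM in STF and 23 and 16.1 CPM in LTF. Ranges of the diets overlapped for all 4 genes in both sets.

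At the first steps of the cycle, citrate synthase and the NAD-dependent isocitrate dehydrogenase subunits lay above their RFD medians in most mice on HFD. Cs had medians of 173 and 227 CPM in STF and 261 and 349 CPM in LTF, where the log2 difference was 0.39 (SE 0.18, adjusted p = 0.47, edgeR). Idh3a, the catalytic subunit, had 95.5 and 239 CPM in STF (log2 difference 0.80, SE 0.29, adjusted p = 0.141, edgeR) and 120.2 and 177 CPM in LTF (0.50, SE 0.24, adjusted p = 0.482). For Idh3b, 11 of 11 STF mice on HFD were above the RFD median (196 and 313 CPM, log2 difference 0.64, SE 0.21, adjusted p = 0.116, edgeR), and the LTF medians were 167 and 218 CPM. The gamma subunit lay on the same side. Idh3g had 150.5 and 236 CPM there, with 11 of 11 HFD mice over the RFD median (0.48, SE 0.18, adjusted p = 0.153, edgeR), and 139 and 202 CPM in LTF.

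The oxoglutarate dehydrogenase complex held the largest and the lowest difference among the STF genes of the cycle that did not pass. Dld, the E3 subunit that pyruvate dehydrogenase shares, had 15.4, 68.6 and 113 CPM on RFD in STF and 22.6, 119 and 179 CPM on HFD, and 7 of 11 HFD mice exceeded the whole RFD range. Its log2 difference was 0.93 (SE 0.31, adjusted p = 0.119, edgeR) in STF. In LTF Dld had 41.8, 66.9 and 174 CPM on RFD and 57.9, 109 and 213 CPM on HFD, with 11 of 12 HFD mice over the RFD median and a difference of 0.51 (SE 0.23, adjusted p = 0.455, edgeR). Ogdh, the E1 subunit, was the gene of the cycle with a lower fitted level in both sets. It had medians of 462 and 322 CPM in STF, where 11 of 11 HFD mice lay under the RFD median (log2 difference -0.25, SE 0.18, adjusted p = 0.474, edgeR), and 515 and 474 CPM in LTF (-0.17, SE 0.17, adjusted p = 0.794), which became 0.01 without RFD mouse 3 and 0.01 with the stem and transit amplifying covariate. Dlst, the E2 subunit, had medians of 64.2 and 74.6 CPM in STF and 103 and 136 CPM in LTF.

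The later steps were higher by fitted level. Sucla2, the ATP-forming subunit, had 57.3, 108 and 224 CPM on RFD in STF and 97.8, 208.5 and 418 CPM on HFD (log2 difference 0.74, SE 0.25, adjusted p = 0.123, edgeR). In LTF it had 76.4, 119.5 and 221 CPM on RFD and 97.2, 185 and 268 CPM on HFD, with 11 of 12 HFD mice over the RFD median (0.49, SE 0.19, adjusted p = 0.364, edgeR). The groups overlapped, with 5 of 11 and 4 of 12 mice on HFD above the whole RFD range. Suclg1, the subunit that both ligases share, had medians of 215 and 306 CPM in STF and 253 and 297 CPM in LTF. Fh1, fumarase, had 66.8 and 129.5 CPM in STF (0.77, SE 0.30, adjusted p = 0.17, edgeR) and 78.3 and 127 CPM in LTF. Malate dehydrogenase closed the cycle with the smallest p of the 34 genes in LTF. Mdh2 there had 499, 726 and 1263 CPM on RFD and 551, 1008 and 2204 CPM on HFD, with 11 of 12 HFD mice over the RFD median and a log2 difference of 0.50 (SE 0.19, adjusted p = 0.345, edgeR). In STF the Mdh2 medians were 492 and 732 CPM, with a difference of 0.29 (SE 0.22, adjusted p = 0.508, edgeR) that was -0.14 with the stem and transit amplifying covariate. Mdh1 had 439 and 506 CPM in STF and 659 and 729 CPM in LTF.

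As a description, the summed TPM of the 19 pyruvate and citrate cycle genes was divided by that of the 16 glycolysis genes in each mouse. In STF the ratio was 0.232, 0.337 and 0.606 in the lowest, median and highest mouse on RFD and 0.191, 0.649 and 0.820 on HFD. Among HFD mice 9 of 11 lay over the RFD median and 6 over the whole RFD range, while the other two, mice 63 and 64, had 0.275 and 0.191. In LTF the ratio was 0.182, 0.275 and 0.572 on RFD and 0.193, 0.368 and 0.613 on HFD, with 11 of 12 HFD mice over the RFD median and 1 above the whole RFD range. The sums themselves overlapped more. The glycolysis sum had medians of 5182 and 4530 TPM in STF and 6647 and 7261 TPM in LTF, and the pyruvate and citrate cycle sum had 1658 and 1636 TPM in STF and 1860 and 2545 TPM in LTF. In CPM the glycolysis sum had medians of 8693 and 6727 in STF and 12041 and 11328 in LTF. The pyruvate and citrate cycle sum had 3009 and 4410 CPM in STF and 3765 and 4539 CPM in LTF. Its higher STF median on HFD in CPM was thus absent in TPM.

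**Figure D4:**
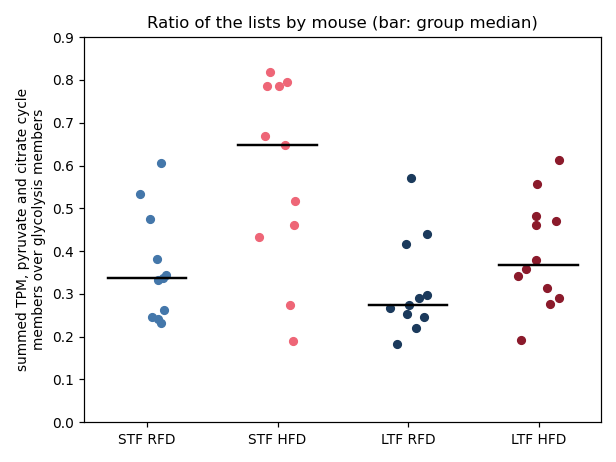
Ratio of the summed TPM of the 19 pyruvate and citrate cycle genes to that of the 16 glycolysis genes, with 1 point for each mouse and a bar at the group median. The STF HFD median of 0.649 lies above every RFD mouse of STF, and 2 STF HFD mice lie at 0.275 and 0.191.

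The mice at the ends of the range of these genes were set beside their cell type markers, as a description. STF HFD mice 63 and 64, with the lowest mean of the 19 pyruvate and citrate cycle genes on that diet (6.36 and 5.93 log2 CPM), had tuft marker means of 9.37 and 9.83, the highest of the group, and stem and transit amplifying means of 6.03 and 3.34. STF HFD mouse 6, with the highest mean on that diet (7.73), had 6.49 for both marker means. STF RFD mice 10 and 20, with the highest mean of the 19 genes on RFD (7.12 and 7.43), had tuft marker means of 7.42 and 7.44 and stem and transit amplifying means of 5.94 and 6.88. The lowest on RFD in STF, mice 24 and 21 (5.95 and 6.15), had tuft marker means of 9.49 and 10.11. Their stem and transit amplifying means were 4.31 and 4.81. In LTF the mouse with the highest mean on RFD, mouse 1 (7.91), had a tuft marker mean of 7.54 and a stem and transit amplifying mean of 6.97, and HFD mouse 6 (7.95) had 5.62 and 6.54. The lowest LTF mouse on HFD, mouse 50 (6.73), had 10.04 and 4.75. On RFD in LTF the lowest apart from mouse 3 was mouse 40 (6.43), with 10.34 and 4.94. The 2 libraries that stand apart went another way, with a low mean of the 19 genes beside a low tuft marker mean in STF RFD mouse 40 (6.18 and 6.96) and in LTF RFD mouse 3 (5.52 and 7.75). The mean of the glycolysis genes had medians of 7.44 on RFD and 7.20 on HFD in STF and of 7.87 and 7.90 in LTF. The share of the diet difference that goes with cell types was not tested beyond the fits with a marker covariate, which cannot separate diet from cell type.

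**Figure D5:**
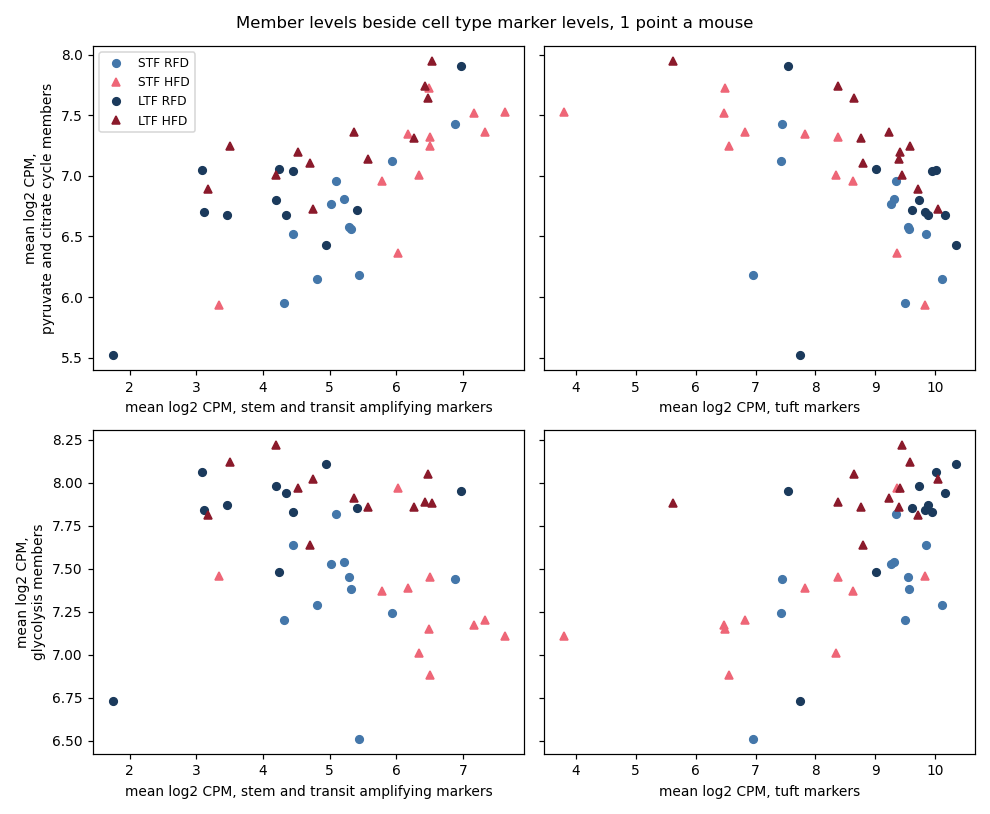
Mean log2 CPM of the 19 pyruvate and citrate cycle genes (top) and of the tested glycolysis genes (bottom) against the mean of stem and transit amplifying markers (left) and of tuft markers (right), with circles for RFD and triangles for HFD. In the top row STF HFD mice 63 and 64 combine high tuft marker levels with low levels of the 19 genes, and STF RFD mouse 40 and LTF RFD mouse 3 are low in both.

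Whether the diet difference itself differed between LTF and STF was tested with an interaction term over all 45 libraries. None of the 34 genes passed, nor did any of the 14020 (0.0%), and 451 genes (3.22%) but none of the 34 had an unadjusted p under 0.05 in edgeR's test. The smallest p among the 34 belonged to Gapdh, whose difference was 0.42 higher in LTF than in STF (SE 0.22, p = 0.0558, adjusted p = 1.0), to Gpi1 with 0.40 (SE 0.21, p = 0.0615) and to Suclg2 with -0.75 (SE 0.43, p = 0.088). The sign of the fitted difference was the same in both sets for 12 of 15 glycolysis genes, 6 higher and 6 lower, and for 17 of 19 pyruvate and citrate cycle genes, 16 higher and 1 lower. It was also the same for 39 of 45 further pathway genes, described below. The share over all genes tested was not counted. The sets share no mice.

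Around these enzymes, 45 of 50 further genes of sugar transport, other isozymes, regulators, gluconeogenesis, pyruvate and lactate transport and the rest of the citrate cycle were tested. In STF 3 of the 45 rose and 2 fell past the threshold, and in LTF 1 rose and 1 fell, where 3.32% and 0.792% of all genes were called. Pdk4, the kinase that inhibits pyruvate dehydrogenase, was at 0 in 7 of 11 RFD libraries of STF and reached 1.34 CPM there, with 5 reads in all. On HFD it had 0.00, 3.18 and 12.1 CPM in the lowest, median and highest mouse, and 9 of 11 mice exceeded the whole RFD range. Its fitted log2 difference was 3.65 (SE 0.96, adjusted p = 0.0662, edgeR), a size that rests on those few reads. With the number series as a term it was 3.21 (adjusted p = 0.121, edgeR), and within the 3 series it was 2.73, 3.22 and 0.32. It was 2.19 in LTF (SE 0.65, adjusted p = 0.154), with medians of 1.75 and 11.5 CPM.

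Pck2, mitochondrial phosphoenolpyruvate carboxykinase, had 0.00, 8.27 and 14.0 CPM on RFD in STF and 11.7, 29.1 and 67.9 CPM on HFD. Of 11 HFD mice, 10 exceeded the whole RFD range, and the log2 difference was 2.04 (SE 0.44, adjusted p = 0.0321, edgeR). In LTF it was 0.08 (SE 0.44, adjusted p = 0.972, edgeR), and the difference between the sets was -1.91 (SE 0.62, p = 0.00347, adjusted p = 1.0). Idh1, the cytosolic NADPH-forming isocitrate dehydrogenase, was the gene of the 45 that rose in both sets. It had 43.0, 135 and 245 CPM on RFD and 82.2, 204 and 437 CPM on HFD in STF (log2 difference 0.95, SE 0.27, adjusted p = 0.0757, edgeR). In LTF it had 69.2, 163 and 259 CPM on RFD and 153, 313 and 504 CPM on HFD, where 10 of 12 mice exceeded the whole RFD range (0.99, SE 0.21, adjusted p = 0.026, edgeR). With Idh2 this gave both NADPH-forming isozymes among the genes that rose in STF. Aco1, cytosolic aconitase, stayed just outside in STF with medians of 57.0 and 105 CPM (0.74, SE 0.24, adjusted p = 0.106, edgeR) and had 70.9 and 120 CPM in LTF (0.65, SE 0.26, adjusted p = 0.38).

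Among these further genes, Pklr and Bpgm fell past the threshold in STF and Slc5a1 in LTF. Pklr, the liver type pyruvate kinase, had 38.2, 178 and 219.7 CPM on RFD in STF and 39.0, 76.5 and 141 CPM on HFD. All 11 HFD mice lay under the RFD median (log2 difference -0.82, SE 0.24, adjusted p = 0.0777, edgeR), and in LTF it was -0.15. Bpgm, bisphosphoglycerate mutase, had 96.3, 250.3 and 354 CPM on RFD and 40.1, 109 and 229.8 CPM on HFD in STF, with 5 of 11 mice under the whole RFD range (-0.98, SE 0.26, adjusted p = 0.0662, edgeR), and in LTF the difference was -0.19. Slc5a1, the apical sodium-glucose transporter SGLT1, which is also 1 of the 10 enterocyte markers, fell in LTF. It had 383, 1379 and 3052 CPM on RFD and 264, 532 and 1209 CPM on HFD, with 12 of 12 HFD mice under the RFD median (-1.36, SE 0.29, adjusted p = 0.0233, edgeR), and in STF the difference was -1.19 (SE 0.38, adjusted p = 0.107). Slc2a2, the basolateral transporter GLUT2, had medians of 41.4 and 23 CPM in STF (-1.36, SE 0.50, adjusted p = 0.158, edgeR) and of 130.0 and 50.8 CPM in LTF (-1.30, SE 0.39, adjusted p = 0.167). The mean of the 10 enterocyte markers, Slc5a1 included, had medians of 9.34 and 9.04 log2 CPM in STF and 10.33 and 10.26 in LTF. The 10 markers did not move together. By fitted level 3 were higher and 7 lower in STF, and 4 were higher and 6 lower in LTF. In LTF Sis had medians of 1201 and 561 CPM, and Rbp2 had 657 and 1602 CPM.

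Most of these further calls were also lost with the marker covariates, which themselves differed between the diets. A lost call therefore does not tell cell type from diet. With the tuft minus enterocyte covariate Pck2 alone of the 5 STF calls passed (1.89, adjusted p = 0.06), while Pdk4 was 2.70 (0.328), Idh1 0.73 (0.228), Pklr -0.59 (0.233) and Bpgm -0.71 (0.137), with adjusted p of edgeR's test in parentheses. With the stem and transit amplifying covariate none of the 5 passed, at 1.88 for Pck2 (0.228), 2.64 for Pdk4 (0.896), 0.77 for Idh1 (0.635), -0.51 for Pklr (0.868) and -0.52 for Bpgm (0.856). None of the 5 passed with limma on TPM. In LTF Idh1 passed with both covariates (0.86 in each, adjusted p = 0.0462 and 0.0675, edgeR). Slc5a1 passed with the first (-1.51, adjusted p = 0.00156, edgeR) but not the second (-1.07, adjusted p = 0.143, edgeR). Slc5a1 is itself an enterocyte marker within the first covariate, so that fit cannot separate the gene from the marker level.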

How the data were processed

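RNA of sorted small intestinal tuft cells was amplified by Smart-seq2 and sequenced paired-end, 1 library per mouse. Per the submitters' processing notes the authors used Cutadapt 1.15, STAR 2.6.0, RSEM and GRCm38. The deposited expected counts (RSEM) were rounded to whole numbers, since 8.79% of those above 0 were not whole, and the deposited TPM were used for levels between genes. The 24 columns that match no sample here were not used. Symbols and positions came from GENCODE M21 (GRCm38). Genes with more than 5 reads in at least 6 of 45 libraries were tested with the quasi-likelihood test of edgeR 4.0.16 (R 4.3.3) and TMM scaling, HFD against RFD within each set, with Benjamini-Hochberg adjustment and a threshold of 0.1. The pairs of values given for a gene are RFD first, then HFD. The biological coefficient of variation was 0.794 in STF and 0.702 in LTF, and median totals per group were 1348669 to 1813398 reads. The main fit within each set and the exact rank-sum test were tried on simulated data, and the other fits and the interaction were not. DESeq2 1.42.0, limma 3.58.1 and an exact rank-sum test were among the alternatives. The authors' weighting by cell type was not repeated. Mouse numbers gave 3 series (1 to 8, multiples of 10, the other numbers from 21 to 64), and the 2 libraries with other numbers above 64 were in none. The paper states that mice shared cages and that termination took 3 days, with 1 cage of every group on each. The labels name neither cage nor day, and whether the number series follow them is not known. The main test counted each mouse as independent, so its p-values make no allowance for cage or day. Members and lists were chosen with earlier results of these data known. Given in full were genes past the threshold and those with the 3 smallest p of each list and set, and, of the further pathway genes, those past the threshold and the next 2 per set. Fold changes were also given for genes with an unadjusted p under 0.05, and for Tpi1, Ogdh and the further gene Hkdc1, chosen after their values were seen.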

Additional observations from a re-analysis of the deposited data

How the results depend on the processing

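Main values were 0 of 15 glycolysis and 3 of 19 pyruvate and citrate cycle genes called in STF, and 0 and 0 in LTF. In STF the 3 calls became 9 with DESeq2, 7 without the filter, 1 without robust estimation, and 0 with limma on log2(TPM + 1) or log2(TPM + 0.1), without libraries under 500000 reads, and with the tuft minus enterocyte covariate. The genes behind counts near 3 varied: DESeq2's size factors gave 2 without Pdha1 (adjusted p = 0.103), the rank-sum test 4 without Idh2 (0.116) but with Idh3b and Idh3g, and the number series as a term 3 without Suclg2 (0.106) but with Dld. Fits chosen after seeing the data gave 8 with edgeR's newer quasi-likelihood method, and 0 with the stem and transit amplifying covariate or without RFD mouse 40. Glycolysis calls, all lower, were 4 with DESeq2, 2 with the newer edgeR method, and 1 each with DESeq2's size factors, without the filter, by exact rank-sum test and without RFD mouse 40. In LTF DESeq2 called 1 glycolysis gene higher and 1 lower, and no other alternative called any of the 34. The causes were not tested. The interaction called none of the 34 under any of its 5 alternatives. The STF medians of the 19 genes and of glycolysis, 0.48 and -0.20, were 0.14 and -0.04 with the stem and transit amplifying covariate, 0.29 and 0.02 with the tuft minus enterocyte covariate and 0.34 and -0.31 on log2(TPM + 1), and the number of the 19 with a higher level, 18, became 11, 12 and 13, 15 without low totals, and 16 with the number series or DESeq2's size factors.

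Fitted log2 differences changed sign in these cases among the 34 members and 8 further genes of the text, with Hkdc1 left out, none past the threshold. With the stem and transit amplifying covariate Slc2a1 in STF was 0.19, Hk2 -0.56, Pfkl -0.04, Pfkm -0.42, Pfkp 0.01, Aldoa 0.19, Ldha 0.11, Pdhb -0.35, Pdhx -0.72, Dlat -0.09, Pcx -0.90, Dlst -0.27, Mdh1 -0.13 and Mdh2 -0.14, and in LTF Hk2 was -0.17, Aldoa 0.06, Ogdh 0.01, Suclg2 -0.06, Bpgm 0.02 and Pck2 -0.65. With the tuft minus enterocyte covariate Aldoa in STF was 0.07, Ldha 0.02, Pdhb -0.17, Pdhx -0.60, Pcx -0.34, Dlst -0.27, Mdh1 -0.08 and Mdh2 -0.01, and in LTF Hk2 was -0.10, Aldoa 0.14, Suclg2 -0.02, Pklr 0.03, Bpgm 0.01 and Pck2 -0.09. On log2(TPM + 1) and log2(TPM + 0.1), respectively, Pfkl in STF was -0.27 and -0.28, Pdhb -0.07 in both, Pdhx -0.42 and -0.47, Pcx -0.07 and -0.12, Dlst -0.12 and -0.14, and Mdh1 -0.05 in both, and in LTF Hk1 was 0.05 and 0.32, Pfkp -0.01 in both, Aldoa 0.00 in both, and Pcx 0.21 on the second scale. Without libraries under 500000 reads Pfkl in STF was -0.01, Pdhb -0.01, Pdhx -0.04 and Dlst -0.05, and without RFD mouse 40 Pfkl was -0.04 and Pdhx -0.05. With the number series as a term Pdhx was -0.31 and Dlst -0.02 in STF, and Hk2 -0.06 and Aldoa 0.06 in LTF. DESeq2's size factors gave -0.03 for Pcx and DESeq2 -0.11, and both gave a value just under 0 (-0.0) for Pdhx in STF and 0.01 for Aldoa in LTF, with DESeq2 also just under 0 (-0.0) for Pfkl. By rank-sum test Pdhx was -0.16 in STF, and Aldoa 0.00 and Pcx 0.07 in LTF. In LTF Aldoa was 0.06 without the filter, Hk2 was -0.09 with the newer edgeR method, and without RFD mouse 3 Hk2 was -0.06, Pdhb 0.05, Ogdh 0.01 and Pck2 -0.05.

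Without a filter the counts of all genes called rose from 466 to 1698 in STF and from 111 to 435 in LTF. DESeq2 called 1534 and 351, the newer edgeR method 1606 and 226, limma on log2(TPM + 1) 9 and 51, and on log2(TPM + 0.1) 5 and 31. In STF the rank-sum test called 932 genes, and 290 were called without low totals, 69 with the tuft minus enterocyte and 1 with the stem and transit amplifying covariate. In LTF 185 were called with the number series as a term and 241 without RFD mouse 3. LTF held no library under 500000 reads, so that alternative gave no value there. No paired analysis was possible because the mice of the 2 diets share no number within a set. Matching by cage or by day of termination was not possible either, since the labels name neither. Totals per library limit low genes such as Pfkm, Hk2 and Pcx.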
